A study of Arabidopsis thaliana with 33 samples.

Results

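The mRNA of Arabidopsis plants carrying ski2-2, dcl4-2 and dcl2-1 together, called the triple mutant here, was compared with that of the wild type Col-0. Every gene with at least 1 FPKM (sequenced fragments scaled by transcript length and by the size of the library) in either genotype was a member of the comparison, which left 18470 of the 33557 genes in the table. The study sequenced poly(A) RNA from 33 libraries of 11 genotypes, 3 libraries each, and the 2 genotypes compared account for 6 of them. The aerial parts of untreated plants were taken at 15:00 at an age of 20 days, 6 of them on MS medium and 14 in soil. The other 9 genotypes were 4 single mutants (ein5-1, ski2-2, dcl2-1 and dcl4-2), 4 double mutants (ski2-2 dcl4-2, ein5-1 dcl2-1, ski2-2 dcl2-1 and ein5-1 dcl4-2) and the triple mutant ein5-1 dcl4-2 dcl2-1. They are used only to place the values. Each genotype's 3 libraries were merged by the authors into a single FPKM for a gene, which leaves no spread between libraries for any value below. No test of the triple mutant against Col-0 was made. A gene is called higher or lower by size alone, past a log2(FPKM + 1) difference of 1, which is the scale of every log2 difference below.

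SKI2 is an RNA helicase that feeds cytoplasmic RNA into the exosome, which degrades it from the 3′ end. EIN5 is the exoribonuclease that degrades decapped RNA from the 5′ end. When decay fails, RNA-dependent polymerase can copy an mRNA into double-stranded RNA, which the Dicer-like enzymes cut into small interfering RNAs (siRNAs). DCL4 makes a shorter class and DCL2 a longer one. DCL4 is also the main maker of trans-acting siRNAs (tasiRNAs), which are cut from the noncoding TAS transcripts after a microRNA has marked them. DCL2 can act on the same RNA where DCL4 is missing. The triple mutant lacks both enzymes in a background of impaired 3′ decay, whereas ski2-2 dcl4-2 still has DCL2.

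Of the genes tested, 524 (2.84%) were higher and 488 (2.64%) were lower in the triple mutant than in Col-0, and the median log2 difference was 0.03. Counts of list members past 1 below are to be set beside these shares, and a count near them says nothing particular about a list. Differences of at least 2 on the log2 scale were found for 60 genes upward and 64 downward, and 75.3% of the genes lay within 0.5. The triple mutant stood nearest to the single mutant ski2-2, from which 235 genes (1.28%) differed past 1, followed by ein5-1 with 367 genes (1.99%). Against dcl4-2 it differed in 1080 genes (5.82%), against Col-0 in 1012 genes (5.48%), and against the other triple mutant in 2456 genes (13.2%). The largest counts were against ski2-2 dcl4-2, with 5075 genes (25.7%), and ein5-1 dcl4-2, with 5938 genes (30.5%). These comparisons all share the libraries of the triple mutant. At the edge of the membership rule AT4G19080 was just inside with 1.00001 FPKM and AT3G44350 just outside with 0.999976 FPKM.

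**Figure D1:**
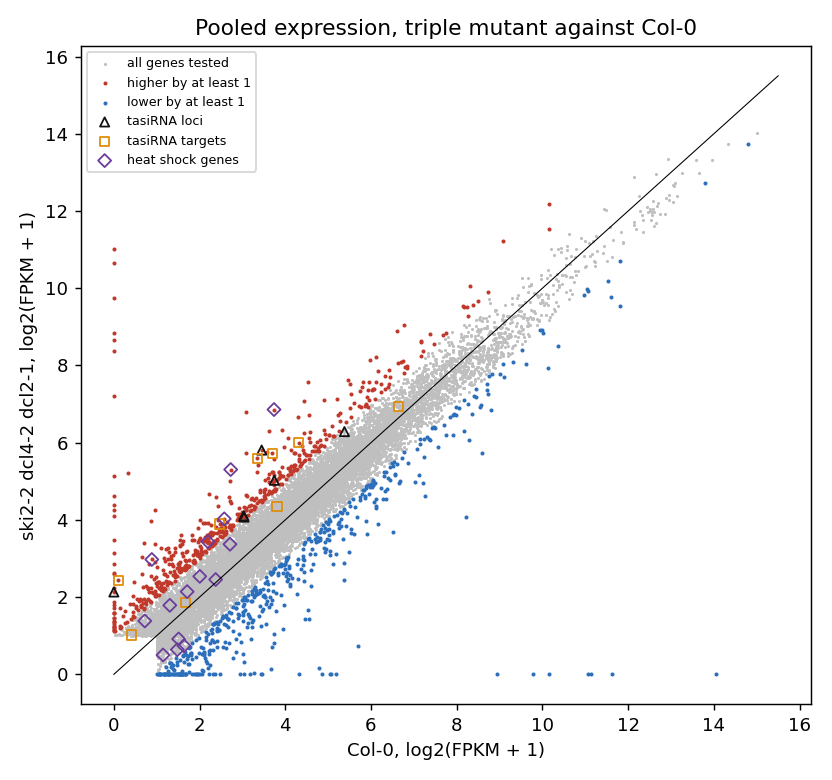
Each point is 1 of the 18470 genes, by its pooled log2(FPKM + 1) in Col-0 (x axis) and in the triple mutant (y axis), with the line of equality. Red points are the 524 genes higher and blue points the 488 genes lower past a difference of 1, and open symbols mark tasiRNA loci, tasiRNA targets and heat shock genes, most of which lie on or above the line.

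**Figure D2:**
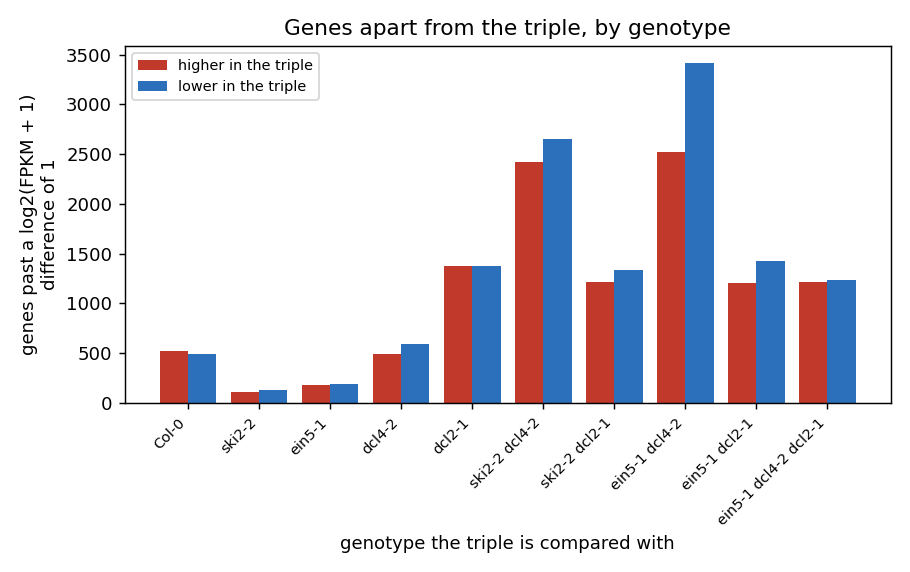
Bars give the number of genes past a log2(FPKM + 1) difference of 1 between the triple mutant and each of the other 10 genotypes, red where the triple mutant was higher and blue where it was lower. The counts run from 106 higher (0.578%) and 129 lower (0.703%) against ski2-2 to 2522 higher (12.9%) and 3416 lower (17.5%) against ein5-1 dcl4-2.

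Markers of green tissue were high in both genotypes, with a summed level over RBCS1A, LHCB1.1, RCA and CA1 of 55875 FPKM in Col-0 and 32722 FPKM in the triple mutant. The 9 root markers summed to 42.8 FPKM in Col-0 and 35.0 FPKM in the triple mutant, and to 3.98 and 3.58 FPKM without PYK10, a glucosidase of root ER bodies. The 4 flower markers AP3, PI, AG and SEP1 summed to 11.2 and 12.1 FPKM, and none of the 4 seed markers reached 1 FPKM in either genotype. FPKM sums over all genes were 1243558 in Col-0 and 1063532 in the triple mutant, and read depth is not given by the table. In bulk RNA of whole aerial parts, fewer cells of a type and less RNA per cell cannot be told apart.

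Both DCL2 and SKI2 transcripts were lower in the triple mutant, and DCL4 was close to its wild-type level. DCL2 (AT3G03300) was at 5.10 FPKM in Col-0 and 1.92 FPKM in the triple mutant (log2 difference -1.06). In the other 4 lines with a dcl2-1 allele it was at 1.23 to 2.35 FPKM. SKI2 (AT3G46960) was at 6.91 FPKM in Col-0 and 2.80 FPKM in the triple mutant (log2 difference -1.06). It was not past 1 downward in ski2-2 dcl4-2, which carries the same ski2-2 allele. The authors' deposited table gave q = 0.00875 for SKI2 in the triple mutant against that double mutant. DCL4 (AT5G20320) was at 5.93 FPKM in Col-0 and 4.53 FPKM in the triple mutant (log2 difference -0.32). EIN5 (AT1G54490), which is intact in both genotypes, was at 17.604 FPKM in Col-0 and 16.4 FPKM in the triple mutant (log2 difference -0.10). FPKM over a whole gene does not show whether the remaining transcript is functional.

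The sequences that link the microRNAs, the TAS transcripts and their targets are printed first, as background to these genes. The sequences had no part in the expression values. They were read from the TAIR10.1 genome and its RefSeq annotation and are in DNA letters, 5′ to 3′. In the mature microRNA the capitals mark the seed, bases 2 to 8, and in each TAS site the capitals mark bases that are not complementary to the microRNA.
miR173-5p (chr3:8236161-8236182, plus strand): tTCGCTTGcagagagaaatcac
TAS1C site (chr2:16537890-16537911, minus strand): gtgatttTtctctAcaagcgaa
TAS2 site (chr2:16539991-16540012, minus strand): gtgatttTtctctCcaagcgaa
miR828 (chr4:13847020-13847041, plus strand): tCTTGCTTaaatgagtattcca
TAS4 site (chr3:9417809-9417830, minus strand): tggaatactcatttGagcaaga
The TAS1C and TAS2 sites each had 2 mismatches to miR173-5p, as did that of TAS1A, and the TAS1B site had 3. The TAS4 site had 1 mismatch to miR828. The best match of miR390a-5p in TAS3 had 5 mismatches.

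TAS transcripts themselves were mostly higher in the triple mutant than in Col-0. Of the 6 loci 5 were past 1 upward and none downward, with a median log2 difference of 1.18 against 0.03 over all genes tested. TAS1C (AT2G39675) was at 9.92 FPKM in Col-0 and 55.0 FPKM in the triple mutant (log2 difference 2.36). It was at 45.1 FPKM in ein5-1 dcl4-2 dcl2-1 and between 7.42 and 16.2 FPKM in the other 8 genotypes, so the 2 genotypes that lack both DCL4 and DCL2 stood apart. TAS3 (AT3G17185), whose siRNAs act on auxin response factors, was at 40.7 FPKM in Col-0 and 77.1 FPKM in the triple mutant (log2 difference 0.91), just under the size called. It was at 69.1 FPKM in ein5-1 dcl4-2 dcl2-1, at 8.95 FPKM in ski2-2 dcl4-2 and at 27.7 to 47.6 FPKM in the other 7. TAS2 (AT2G39681) was at 12.4 FPKM in Col-0 and 31.6 FPKM in the triple mutant (log2 difference 1.28), with 37.3 FPKM in ein5-1 dcl4-2 dcl2-1 and 28.9 FPKM in ski2-2 dcl4-2. TAS1A was at 7.17 FPKM in Col-0 and 16.2 FPKM in the triple mutant (log2 difference 1.08). TAS1B was at 7.21 FPKM in Col-0 and 15.8 FPKM in the triple mutant (log2 difference 1.03). The triple mutant held the highest value of the 11 genotypes at both. With quantile normalization the log2 difference of TAS1B was 0.999, just under the size called. TAS4 (AT3G25795) was listed at 0 in Col-0 and was at 3.38 FPKM in the triple mutant, against 41.1 FPKM in ski2-2 dcl4-2 and 56.1 FPKM in ein5-1 dcl4-2. The 3 TAS1 loci are close copies of one another, so reads could be split between them by the authors' counting. In the authors' deposited table the triple mutant differed from ski2-2 dcl4-2 at TAS1C and TAS3, both with q = 0.000211, and not at TAS2, with q = 0.432.

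The stretches of TAS RNA that pair with protein-coding targets are shown with the best-matching target site, in which capitals mark bases that are not complementary. For TAS3 and TAS1C the stretch is from the transcript, and for TAS4 and TAS2 it is from the opposite strand.
TAS3 stretch (chr3:5862204-5862224, plus strand): ttttcttgaccttgtaagacc
ARF4 site (chr5:24309716-24309736, minus strand): ggtcttGcaaggtcaagaaaa
TAS1C stretch (chr2:16537835-16537855, minus strand): ctaagtccaacatagcgtatt
HTT1 site (chr4:14577243-14577263, plus strand): aaCacgAtatgttggacttag
HTT2 site (chr5:5973753-5973773, plus strand): aTCacgctatgttggacttag
TAS4 stretch (chr3:9417736-9417756, plus strand): gtgaaggatcgaggtcgaggc
MYB75 site (chr1:21234021-21234041, minus strand): gcctcgacctcgatccttcac
MYB90 site (chr1:24765073-24765093, plus strand): gcctcgacctcgatccttcTc
TAS2 stretch (chr2:16539877-16539897, plus strand): atatcccatttctaccatctg
AT1G63130 site (chr1:23413379-23413399, plus strand): cagatggtGgaaatgggatat
The matches are descriptions of these letters, and the small RNAs themselves were not analysed here.

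Of 10 tasiRNA targets 9 were tested, and 5 were past 1 upward and none downward, with a median log2 difference of 1.42. ARF4 (AT5G60450), an auxin response factor of leaf polarity and of the change to adult leaf traits, was at 12.0 FPKM in Col-0 and 51.8 FPKM in the triple mutant (log2 difference 2.03). HTT2 (AT5G18040), a heat-induced target of TAS1 siRNAs, was at 9.19 FPKM in Col-0 and 47.3 FPKM in the triple mutant (log2 difference 2.24). Its paralog HTT1 (AT4G29770) was at 0.0742 FPKM in Col-0 and 4.42 FPKM in the triple mutant (log2 difference 2.33). At these 3 genes all 5 genotypes with dcl4-2 lay above the 6 without it. ARF4 was at 31.5 FPKM in dcl4-2 alone and 60.2 FPKM in ski2-2 dcl4-2, and HTT2 at 20.9 and 49.2 FPKM. HTT1 was at 1.497 and 7.203 FPKM. Between the triple mutant and ski2-2 dcl4-2 the authors' deposited table gave q = 0.0940 for ARF4, q = 0.717 for HTT2 and q = 0.00664 for HTT1. ARF3 was at 13.0 FPKM in Col-0 and 19.4 FPKM in the triple mutant (log2 difference 0.55). ARF2 was at 99.0 FPKM in Col-0 and 122 FPKM in the triple mutant (log2 difference 0.30). In ski2-2 dcl4-2 they were at 27.4 and 152 FPKM, and the authors' deposited table gave q = 0.000211 and q = 0.0131 for the triple mutant against it. Both were under the size called against Col-0, and their best sites match TAS3 with 1 and 2 mismatches. MYB75 (PAP1), an anthocyanin activator and a target of TAS4, was at 18.9 FPKM in Col-0 and 63.1 FPKM in the triple mutant (log2 difference 1.69). MYB90 (PAP2), which has the same role, was at 4.55 FPKM in Col-0 and 13.9 FPKM in the triple mutant (log2 difference 1.42). Both were also high in ski2-2, at 92.4 and 42.3 FPKM, and in ein5-1, at 103 and 29.7 FPKM, so their values did not follow dcl4-2.

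The pentatricopeptide repeat (PPR) genes, a family of organelle RNA-binding proteins of which some are targets of TAS2 siRNAs, held 1 gene past 1 of 12 tested and a median log2 difference of 0.35. The median was 0.84 with a minimum of 5 FPKM and 0.23 with none. AT1G63130 was at 5.64 FPKM in Col-0 and 12.6 FPKM in the triple mutant (log2 difference 1.04), with 12.6 FPKM in ein5-1 dcl4-2 dcl2-1 and 5.10 to 10.13 FPKM in the other 8 genotypes. With quantile normalization its log2 difference was 0.98. RPF3 was at 2.99 FPKM in Col-0 and 5.23 FPKM in the triple mutant (log2 difference 0.64). AT1G62910 was at 1.41 FPKM in Col-0 and 3.07 FPKM in the triple mutant (log2 difference 0.75). The members of this family are close copies, and reads could be split between them. Among genes outside the lists, AT1G76065 was above the other 6 genotypes in all 5 with dcl4-2 and stood at 2.81 FPKM in Col-0 and 7.58 FPKM in the triple mutant (log2 difference 1.17). It was chosen after its values were seen.

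**Figure D3:**
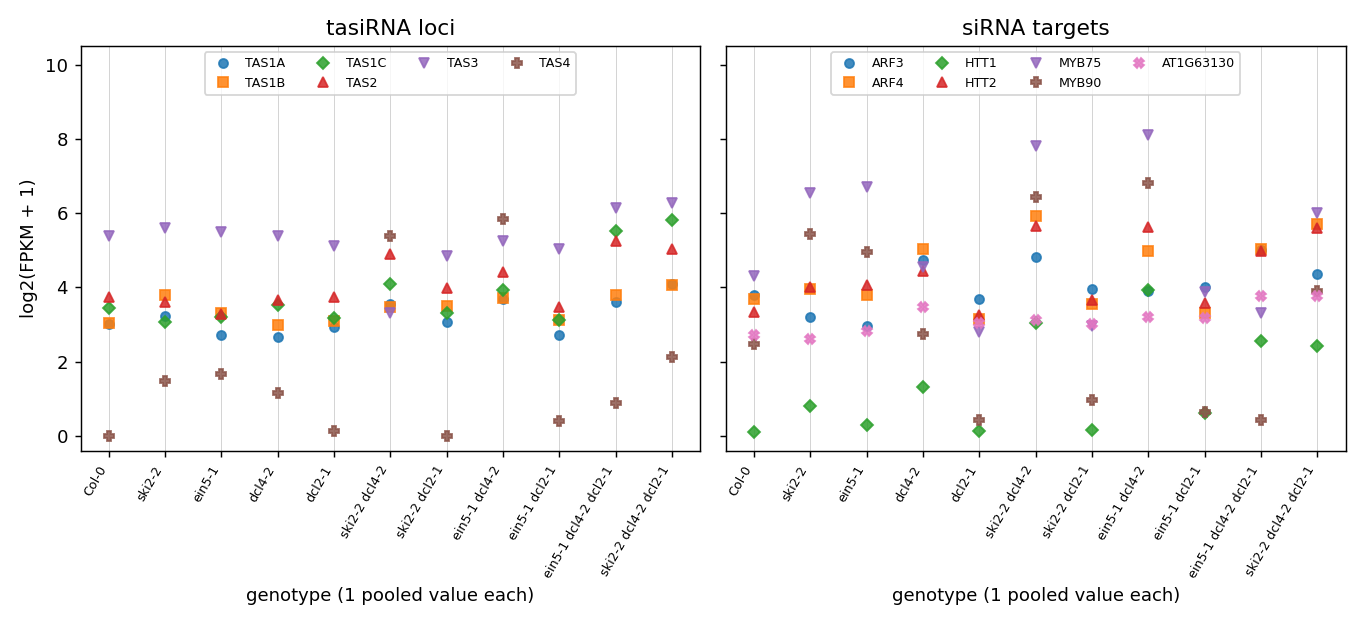
Points give the pooled log2(FPKM + 1) of the 6 TAS loci (left) and of 7 siRNA targets (right) in each of the 11 genotypes (x axis), 1 value each. TAS1C and TAS3 are highest in the 2 triple mutants, ARF4, HTT1 and HTT2 are high in every genotype with dcl4-2, and MYB75 and MYB90 are also high in ski2-2 and ein5-1.

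The 4 genes NIA1, NIA2, SMXL4 and SMXL5 are known sources of the siRNAs that DCL2 makes when DCL4 and cytoplasmic decay are impaired, and NIA2, the main nitrate reductase gene of the leaf, was the one that stood far above Col-0. NIA2 (AT1G37130) was at 109 FPKM in Col-0 and 531 FPKM in the triple mutant (log2 difference 2.28), with 489 FPKM in ski2-2, 399 FPKM in ein5-1 and 83.6 to 172 FPKM in the other 7 genotypes. In ski2-2 dcl4-2 it was at 83.6 FPKM, and in the authors' deposited table the difference of the triple mutant from that double mutant had q = 0.000211. The other lines with dcl2-1 were also far below the triple mutant. NIA2 was at 98.0 FPKM in dcl2-1, 150 FPKM in ski2-2 dcl2-1, 145 FPKM in ein5-1 dcl2-1 and 140 FPKM in ein5-1 dcl4-2 dcl2-1. A part of DCL2 in the NIA2 level was not tested. NIA1, the second nitrate reductase, was at 20.9 FPKM in Col-0 and 32.1 FPKM in the triple mutant (log2 difference 0.59). SMXL4, a regulator of phloem formation, was at 2.05 FPKM in Col-0 and 2.68 FPKM in the triple mutant (log2 difference 0.27). SMXL5, its paralog, was at 4.81 FPKM in Col-0 and 6.94 FPKM in the triple mutant (log2 difference 0.45).

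Of 21 nitrate and ammonium genes tested, NIR1 and UPM1 were past 1 upward and ASN1 downward, with a median log2 difference of 0.13 that was 0.26 with quantile normalization. NIR1, the nitrite reductase, was at 55.7 FPKM in Col-0 and 188 FPKM in the triple mutant (log2 difference 1.74). UPM1, an enzyme of the synthesis of its sirohaem cofactor, was at 23.0 FPKM in Col-0 and 50.6 FPKM in the triple mutant (log2 difference 1.103). ASN1 (AT3G47340), the asparagine synthetase of darkened and sugar-starved leaves, was at 12.3 FPKM in Col-0 and 1.08 FPKM in the triple mutant (log2 difference -2.67). ASN1 was at 0.269 FPKM in ski2-2 and 0.276 FPKM in ein5-1, against 5.22 to 22.0 FPKM in the other 7 genotypes. The glutamate dehydrogenase gene GDH1 was at 39.7 FPKM in Col-0 and 19.4 FPKM in the triple mutant (log2 difference -0.99), close to the size called and past it with either scaling.

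Of 15 heat shock genes tested, 5 were past 1 upward and none downward, with a median log2 difference of 0.53. The median was 1.77 over the members with at least 5 FPKM in either genotype and 0.43 with no minimum. The absence of downward calls depended on the pseudocount. With 0.1, HSP17.6A, BAG6 and DREB2A were past 1 downward (log2 differences -1.52, -1.52 and -1.35), and HSP17.6II was past it upward (1.19). The chaperone gene HSP70-4 (AT3G12580) was at 12.3 FPKM in Col-0 and 115 FPKM in the triple mutant (log2 difference 3.12). HSP90.1 (AT5G52640) was at 5.62 FPKM in Col-0 and 38.5 FPKM in the triple mutant (log2 difference 2.58). HSFA2, the heat shock factor that keeps the response going, was at 0.847 FPKM in Col-0 and 6.86 FPKM in the triple mutant (log2 difference 2.09). ROF2, a cochaperone that binds it, was at 4.97 FPKM in Col-0 and 15.3 FPKM in the triple mutant (log2 difference 1.45). The small chaperone gene HSP17.8 was at 3.57 FPKM in Col-0 and 9.83 FPKM in the triple mutant (log2 difference 1.24). The same 5 genes were high in ski2-2 and ein5-1, with HSP70-4 at 126 and 113 FPKM and HSP90.1 at 44.0 and 41.6 FPKM. HSP70-4 was between 4.29 and 9.83 FPKM in dcl4-2, dcl2-1, ski2-2 dcl2-1, ein5-1 dcl2-1 and ein5-1 dcl4-2 dcl2-1, and reached 317 FPKM in ski2-2 dcl4-2 and 348 FPKM in ein5-1 dcl4-2. Of the 8 genes of the unfolded protein response, BIP3, an endoplasmic reticulum chaperone, was past 1, at 1.71 FPKM in Col-0 and 4.78 FPKM in the triple mutant (log2 difference 1.09).

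Of 12 senescence genes tested, SEN1 and DIN10 were past 1 downward and none upward, with a list median of 0.15. SEN1 (DIN1) was at 12.3 FPKM in Col-0 and 0.753 FPKM in the triple mutant (log2 difference -2.92). DIN10, a gene of the raffinose synthase family, was at 20.8 FPKM in Col-0 and 4.38 FPKM in the triple mutant (log2 difference -2.02). Both were low in ski2-2 and ein5-1 as well, SEN1 at 1.70 and 0.596 FPKM and DIN10 at 2.56 and 1.26 FPKM. The other 7 genotypes held 5.07 to 38.5 FPKM of SEN1 and 17.5 to 76.6 FPKM of DIN10. The kelch F-box gene AT1G80440 and the starch phosphorylase PHS2 were named after their values were seen. AT1G80440 was at 14.0 FPKM in Col-0 and 3.17 FPKM in the triple mutant (log2 difference -1.84). PHS2 was at 57.7 FPKM in Col-0 and 14.7 FPKM in the triple mutant (log2 difference -1.90). The triple mutant, ski2-2 and ein5-1 were all above the other 8 genotypes by over 0.5 (log2) at 148 genes, among those that reached 5 FPKM in any genotype. They were all below at 163 genes. This grouping was also made after values were seen. No other grouping of this size was counted and no share of all genes was computed, so the counts do not show whether it is unusual.

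Clock genes were measured in the same libraries, and their values differed between the 2 genotypes although both were collected at the same hour. Of 17 tested, LHY, a morning repressor, was past 1 upward, and PRR7, which represses LHY later in the morning, and GRP8, an evening RNA-binding protein, were past 1 downward. The list median was -0.36, but 0.03 with a minimum of 5 FPKM and -0.03 with none, so its direction depended on the minimum. LHY was at 61.1 FPKM in Col-0 and 188 FPKM in the triple mutant (log2 difference 1.60). CCA1, its partner, was at 102 FPKM in Col-0 and 165 FPKM in the triple mutant (log2 difference 0.69). PRR7 was at 38.7 FPKM in Col-0 and 15.3 FPKM in the triple mutant (log2 difference -1.29). GRP8 was at 253 FPKM in Col-0 and 121 FPKM in the triple mutant (log2 difference -1.05), and just under the size called with quantile normalization. LHY was at 204 FPKM in ski2-2 and 232 FPKM in ein5-1, and only 1.66 to 3.57 FPKM in the 4 other lines that carry dcl2-1. The evening genes ELF4 and LUX were low in both genotypes. ELF4 was at 3.77 FPKM in Col-0 and 1.98 FPKM in the triple mutant. LUX was at 3.48 FPKM in Col-0 and 1.98 FPKM in the triple mutant. The part of clock state in the differences of light-, sugar- and time-dependent genes was not tested.

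PORB and TSF were among the genes with the largest differences downward and upward. PORB (AT4G27440), a light-dependent enzyme of chlorophyll synthesis, was at 295 FPKM in Col-0 and 15.9 FPKM in the triple mutant (log2 difference -4.13), with 14.4 FPKM in ein5-1, 17.7 FPKM in ski2-2 and 45.8 to 1575 FPKM in the other 7 genotypes. TSF (AT4G20370), a close relative of the florigen gene FT, was at 0.617 FPKM in Col-0 and 9.53 FPKM in the triple mutant (log2 difference 2.70), with 12.2 FPKM in ski2-2, 9.19 FPKM in ein5-1 and at most 1.19 FPKM in the other 7. FT itself was at 2.22 FPKM in Col-0 and 4.75 FPKM in the triple mutant (log2 difference 0.84). Of 12 floral genes tested 1 was past 1: FUL, a MADS-box gene of flowering shoots, was at 3.53 FPKM in Col-0 and 9.72 FPKM in the triple mutant (log2 difference 1.24).

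Of 31 photosynthesis genes 5 were past 1 downward and none upward, with a median log2 difference of -0.59. LHCB1.4, a light-harvesting protein gene, was at 3615 FPKM in Col-0 and 748 FPKM in the triple mutant (log2 difference -2.27). FBA5, a fructose-bisphosphate aldolase, was at 789.9 FPKM in Col-0 and 263 FPKM in the triple mutant (log2 difference -1.58). RBCS1A, a Rubisco small subunit, was at 28453 FPKM in Col-0 and 13622 FPKM in the triple mutant (log2 difference -1.06). LHCB2.3 and LHCB1.2 had log2 differences of -1.11 and -1.08. With quantile normalization the list median was -0.13, and LHCB1.2, LHCB2.3 and RBCS1A were no longer past 1, RBCS1A being at -0.24. The light-harvesting and small-subunit genes are families of close copies, so levels of single members are uncertain.

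Of 19 flavonoid and anthocyanin genes 7 were past 1 upward and 1 downward, with a median log2 difference of 0.95. Besides MYB75 and MYB90 the enzymes F3H, F3'H and LDOX were higher. F3H was at 103 FPKM in Col-0 and 269 FPKM in the triple mutant (log2 difference 1.38). F3'H was at 27.0 FPKM in Col-0 and 66.7 FPKM in the triple mutant (log2 difference 1.27). LDOX was at 86.0 FPKM in Col-0 and 206 FPKM in the triple mutant (log2 difference 1.25). Of the sugar and acyl transferases of the list, UGT75C1 and 5MAT were past 1, and UF3GT, UGT78D2 and UGT78D1 were not, with log2 differences of 0.92, 0.93 and 0.53. UGT75C1 was at 29.4 FPKM in Col-0 and 73.6 FPKM in the triple mutant (log2 difference 1.296). 5MAT was at 11.2 FPKM in Col-0 and 25.9 FPKM in the triple mutant (log2 difference 1.14). MYBL2, a repressor of the pathway, was the member that was lower, at 68.6 FPKM in Col-0 and 19.5 FPKM in the triple mutant (log2 difference -1.76). F3H was at 337 FPKM in ski2-2 and 408 FPKM in ein5-1, and reached 1148 FPKM in ski2-2 dcl4-2. It was at 9.10 to 15.6 FPKM in the 4 other genotypes with dcl2-1, the same 4 in which LHY was low.

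Stress hormone lists were split. Of 20 salicylic acid and immune genes 3 were past 1 upward and none downward. The list median was 0.32. PR1, a secreted defence protein, was at 14.1 FPKM in Col-0 and 78.7 FPKM in the triple mutant (log2 difference 2.40). The defence protein genes PR2 and PR5 of the same list were close to Col-0, with log2 differences of -0.02 and 0.05. The transcription factor gene WRKY38 was at 0.568 FPKM in Col-0 and 5.06 FPKM in the triple mutant (log2 difference 1.95). NIMIN1, which binds the receptor NPR1, was at 3.70 FPKM in Col-0 and 11.3 FPKM in the triple mutant (log2 difference 1.39). PR1 was at 202 FPKM in dcl2-1 and 1658 FPKM in ein5-1 dcl4-2, so the triple mutant did not stand at an end of its range. Of 24 jasmonate genes 2 were past 1 upward and 1 downward. The list median was -0.01. The defensin PDF1.2b was at 12.4 FPKM in Col-0 and 46.7 FPKM in the triple mutant (log2 difference 1.83). Its relatives PDF1.2 and PDF1.2c had log2 differences of -0.33 and 0.75, and reads could be split between the copies. PDF1.2c is outside the list and was named after its values were seen. The thionin THI2.1 was at 2.70 FPKM in Col-0 and 7.88 FPKM in the triple mutant (log2 difference 1.26). The biosynthetic cyclase AOC2 was at 74.1 FPKM in Col-0 and 27.5 FPKM in the triple mutant (log2 difference -1.40).

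Of 23 abscisic acid (ABA) and drought genes 3 were past 1 upward and 4 downward, with a median log2 difference of 0.21. GOLS2, which starts the synthesis of raffinose sugars, was at 3.68 FPKM in Col-0 and 24.3 FPKM in the triple mutant (log2 difference 2.44). HAB1, a phosphatase that holds ABA signalling off, was at 21.5 FPKM in Col-0 and 50.02 FPKM in the triple mutant (log2 difference 1.18). LEA4-5, a dehydration protein, was at 0.746 FPKM in Col-0 and 2.83 FPKM in the triple mutant (log2 difference 1.13). P5CS1, the rate-limiting enzyme of proline synthesis, was at 70.5 FPKM in Col-0 and 13.7 FPKM in the triple mutant (log2 difference -2.28). The ABA receptor genes PYL4, PYL5 and PYL6 were lower. PYL4 was at 92.0 FPKM in Col-0 and 44.4 FPKM in the triple mutant (log2 difference -1.03). PYL5 was at 15.6 FPKM in Col-0 and 4.51 FPKM in the triple mutant (log2 difference -1.59). PYL6 was at 2.95 FPKM in Col-0 and 0.455 FPKM in the triple mutant (log2 difference -1.44). P5CS1 reached 811 FPKM in ski2-2 dcl4-2, and the median of the list in that double mutant over Col-0 was 2.35.

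Of 8 genes of the cold regulon 1 was past 1 upward and 2 downward. KIN2 was at 305 FPKM in Col-0 and 621 FPKM in the triple mutant (log2 difference 1.02). The chloroplast protectant COR15A was at 101 FPKM in Col-0 and 31.1 FPKM in the triple mutant (log2 difference -1.67). Its paralog COR15B was at 18.23 FPKM in Col-0 and 3.20 FPKM in the triple mutant (log2 difference -2.20). Of 7 oxidative stress genes 3 were past 1 downward, and the list median was -0.99. The median over all listed members, with no minimum, was -0.08, and it was -0.68 with quantile normalization. FSD1, an iron superoxide dismutase, was at 551 FPKM in Col-0 and 208 FPKM in the triple mutant (log2 difference -1.40). The catalase CAT1 was at 26.1 FPKM in Col-0 and 10.03 FPKM in the triple mutant (log2 difference -1.30). The glucosyltransferase UGT74E2 was at 4.98 FPKM in Col-0 and 1.47 FPKM in the triple mutant (log2 difference -1.28). CAT3 was at 1139 FPKM in Col-0 and 573 FPKM in the triple mutant (log2 difference -0.99). Of 13 wall loosening genes 2 expansins were past 1 downward. EXPA1 was at 240.1 FPKM in Col-0 and 72.7 FPKM in the triple mutant (log2 difference -1.71). EXPA8 was at 100.4 FPKM in Col-0 and 29.9 FPKM in the triple mutant (log2 difference -1.71).

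Of the 49 genes tested in the sulfur, glucosinolate, iron and phosphate lists 6 (12.2%) were past 1 in either direction. The share over all genes tested was 5.48%, but the lists were chosen with earlier results known, so the 2 shares do not test the lists. GGCT2;1, BHLH100, PHT1;4 and RNS1 were under 1 FPKM in the triple mutant and were members only through their higher Col-0 values. LSU1, induced by sulfur shortage, was at 3.05 FPKM in Col-0 and 15.1 FPKM in the triple mutant (log2 difference 1.99). GGCT2;1, which degrades glutathione, was at 2.36 FPKM in Col-0 and 0.204 FPKM in the triple mutant (log2 difference -1.48). They were the 2 of 12 sulfur genes past 1. MYB29, a regulator of aliphatic glucosinolates, was at 37.1 FPKM in Col-0 and 77.6 FPKM in the triple mutant (log2 difference 1.05), the 1 of 16 glucosinolate genes past 1. The iron regulator BHLH100 was at 1.34 FPKM in Col-0 and 0.138 FPKM in the triple mutant (log2 difference -1.04), the 1 of 12 iron genes past 1. The phosphate transporter gene PHT1;4 was at 2.50 FPKM in Col-0 and 0.470 FPKM in the triple mutant (log2 difference -1.25). The ribonuclease gene RNS1 was at 1.46 FPKM in Col-0 and 0.220 FPKM in the triple mutant (log2 difference -1.01), and just under the size called with quantile normalization. They were the 2 of 9 phosphate genes past 1. CML38, a calmodulin-like gene of the rapid wound response, was at 7.79 FPKM in Col-0 and 1.52 FPKM in the triple mutant (log2 difference -1.81), the only one of 23 touch and wound genes past 1.

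None of the members tested was past 1 among the 17 RNA silencing factors, the 36 microRNA targets, the 16 ethylene genes, the 18 cell division genes and the 3 root markers. The share over all genes tested was 5.48%, at which lists of this size hold few calls, so the absence of calls says little about them. Among silencing factors AGO2 was at 5.16 FPKM in Col-0 and 9.28 FPKM in the triple mutant (log2 difference 0.74). SGS3, which stabilises RNA for copying, was at 12.5 FPKM in Col-0 and 8.20 FPKM in the triple mutant (log2 difference -0.56). The largest difference among microRNA targets was that of SPL4, at 22.5 FPKM in Col-0 and 14.2 FPKM in the triple mutant (log2 difference -0.63). Of 19 RNA decay factors CAF1a, a deadenylase subunit, was past 1, at 12.8 FPKM in Col-0 and 27.0 FPKM in the triple mutant (log2 difference 1.02). Its log2 difference was 0.996 with median-of-ratios scaling and 0.962 with quantile normalization. It was also at 30.3 FPKM in dcl4-2 and 27.2 FPKM in ski2-2 dcl2-1.

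**Figure D4:**
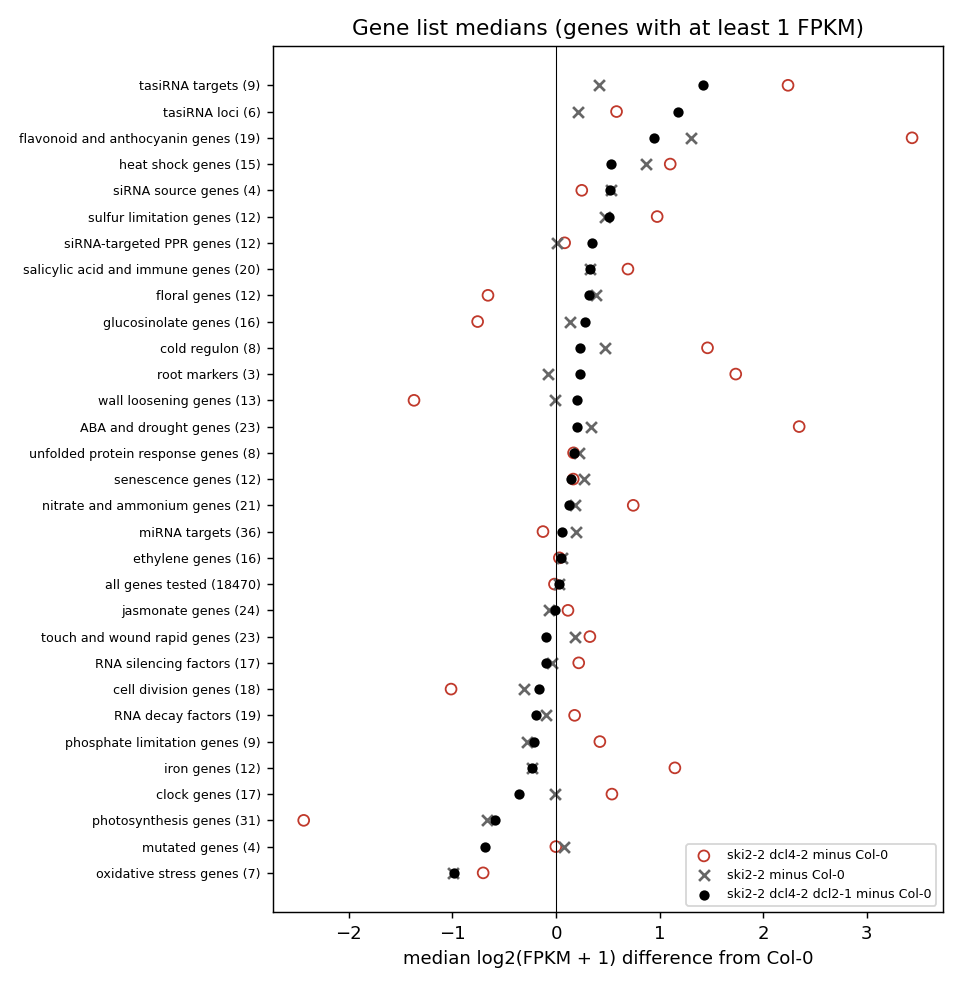
Points give the median log2(FPKM + 1) difference from Col-0 over the tested members of each gene list (number in brackets) in the triple mutant (filled), ski2-2 (crosses) and ski2-2 dcl4-2 (open circles), which share the Col-0 libraries. In the triple mutant the medians run from -0.99 for oxidative stress genes to 1.42 for tasiRNA targets (-0.08 and 1.01 with no minimum), while those of ski2-2 dcl4-2 run from -2.44 for photosynthesis genes to 3.44 for flavonoid genes.

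Among all genes with at least 5 FPKM in one of the 2 genotypes and not listed at 0 in either, the largest upward differences were led by AT1G27565, at 0.260 FPKM in Col-0 and 36.3 FPKM in the triple mutant (log2 difference 4.89). HEI10, a factor of meiotic crossovers, was at 0.828 FPKM in Col-0 and 14.7 FPKM in the triple mutant (log2 difference 3.0998). NAS1, which makes the metal chelator nicotianamine, was at 7.41 FPKM in Col-0 and 52.2 FPKM in the triple mutant (log2 difference 2.66). HEI10 was at 9.18 FPKM in dcl4-2, 16.8 FPKM in dcl2-1 and 16.7 FPKM in ski2-2 dcl2-1, while the remaining 6 held 0.331 to 4.38 FPKM. The remaining 7 were HSP70-4 and TSF, given above, and AT5G52740, AT5G03285, AT1G68238, AT4G04223 and AT1G53542. AT1G53542, a gene of 186 bases that lies beside HSP17.6C, was at 7.54 FPKM in Col-0 and 110.5 FPKM in the triple mutant (log2 difference 3.71) and listed at 0 in 5 genotypes.

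The largest downward differences were led by AT2G01008, at 50.7 FPKM in Col-0 and 0.653 FPKM in the triple mutant (log2 difference -4.97). AT3G41762 was at 26.4 FPKM in Col-0 and 0.119 FPKM in the triple mutant (log2 difference -4.61). AT4G36850 was at 11.8 FPKM in Col-0 and 0.106 FPKM in the triple mutant (log2 difference -3.53). XPL1, a methyltransferase of phosphocholine synthesis, was at 22.5 FPKM in Col-0 and 1.71 FPKM in the triple mutant (log2 difference -3.12). It was at 25.4 FPKM in dcl4-2, 31.8 FPKM in ein5-1 dcl4-2 dcl2-1 and 1.58 to 2.81 FPKM in the other 7 genotypes. GRP17, an oleosin of the pollen coat, was at 8.61 FPKM in Col-0 and 0.0199 FPKM in the triple mutant (log2 difference -3.24). AT5G19120 was at 20.9 FPKM in Col-0 and 1.72 FPKM in the triple mutant (log2 difference -3.01). PORB, SEN1, AT1G66850 and AT4G22505 completed the 10.

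**Figure D5:**
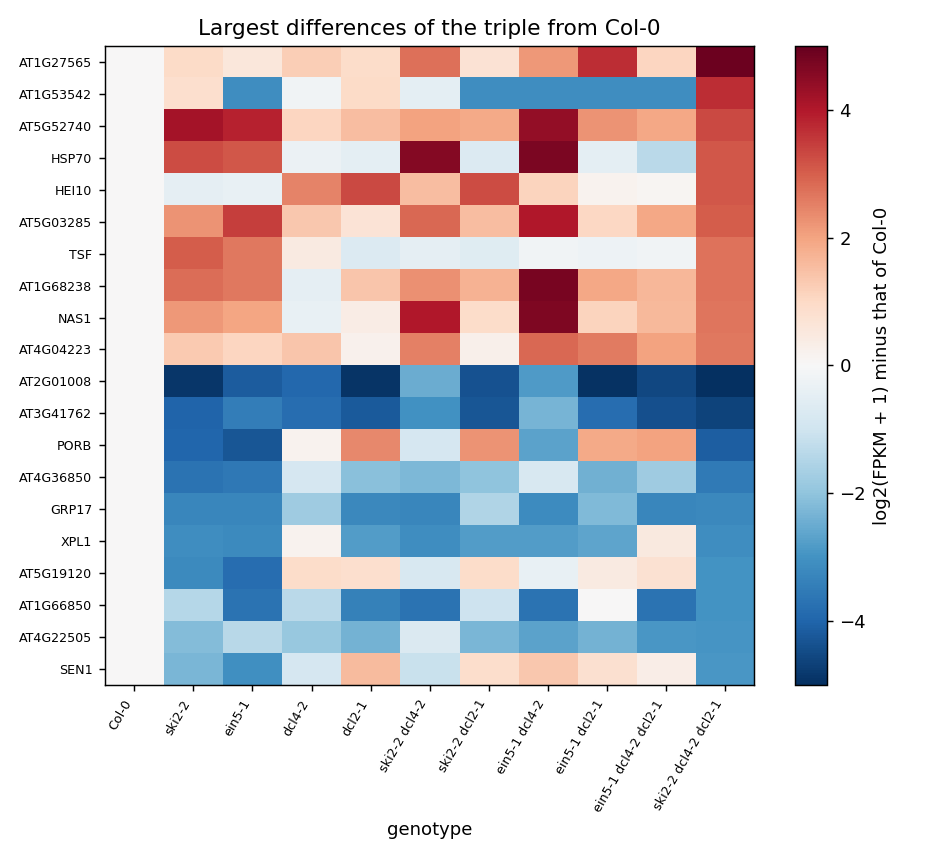
Rows are the 10 genes with the largest upward and the 10 with the largest downward difference between the triple mutant and Col-0, columns are the 11 genotypes, and colour is log2(FPKM + 1) minus that of Col-0. The columns of ski2-2 and ein5-1 show HSP70-4 (HSP70), TSF, PORB and SEN1 on the same side as the triple mutant, and the rows of AT2G01008 and AT3G41762 are low in every genotype but Col-0.

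Genes picked for being far from Col-0 in ski2-2 dcl4-2 had medians nearer to the Col-0 level in the triple mutant. Because the value of the double mutant picked them, a nearer median in another genotype follows in part from the choice. The triple mutant differs from that double mutant by dcl2-1, whose part in these medians was not tested. Of the genes with at least 5 FPKM in ski2-2 dcl4-2 or Col-0, 337 were at least 3 (log2) higher in the double mutant, with a median log2 difference of 3.75. In the triple mutant the median of the same genes was 0.01, with percentiles 10 and 90 at -0.51 and 1.24. Their median level was 0.894 FPKM in Col-0, 34.4 FPKM in ski2-2 dcl4-2 and 1.06 FPKM in the triple mutant. Many were thus members only through the double mutant and were near the floor in both Col-0 and the triple mutant. There the pseudocount of 1 keeps differences small, so the median of 0.01 says little about a return. The 132 genes at least 3 lower in the double mutant had medians of -3.51 there and -0.44 in the triple mutant, with percentiles 10 and 90 at -3.11 and 0.64 in the latter. LTP3, a lipid transfer protein, was at 5.81 FPKM in Col-0, 901 FPKM in ski2-2 dcl4-2 and 6.46 FPKM in the triple mutant. JAL33, a jacalin lectin, was at 6.03, 187 and 6.51 FPKM in the same order. AT1G47395, a short peptide of the iron response, was at 11.2, 284 and 10.9 FPKM. Downward, FLA13, an arabinogalactan protein, was at 178, 13.0 and 175 FPKM. LTL1, a lipase, was at 83.6, 6.02 and 82.9 FPKM. These genes were named for the smallest difference from Col-0 in the triple mutant.

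The next counts cover genes with at least 5 FPKM in the triple mutant or Col-0 and listed at 0 in neither. Among them 87 were at least 3 (log2) higher and 121 at least 3 lower in ski2-2 dcl4-2 than in Col-0. In the triple mutant 37 of the 87 were past 1 upward and 24 of the 121 were past 1 downward. The minimum differs from that of the sets above, so these counts are not shares of those sets. HSP70-4, NAS1, GOLS2, PR1 and AT1G67920 led the upward set. AT1G67920 was at 0.953 FPKM in Col-0 and 9.38 FPKM in the triple mutant (log2 difference 2.41) and at 58.6 FPKM in the double mutant. AT3G41762, GRP17, XPL1, AT1G66850 and AT2G40400 led the downward set. AT2G40400 was at 59.1 FPKM in Col-0 and 11.3 FPKM in the triple mutant (log2 difference -2.28) and at 5.97 FPKM in the double mutant. For XPL1 the authors' deposited table gave q = 0.956 between triple and double.

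The reverse pattern, past 1 in the triple mutant and under 0.5 the same way in the double mutant, was found for 170 genes upward and 114 downward. They are out of the same 14211 genes. NIA2, TSF and GDU7, a relative of the glutamine export regulator GDU1, were among the 5 largest upward. GDU7 was at 0.582 FPKM in Col-0 and 7.23 FPKM in the triple mutant (log2 difference 2.38) and listed at 0 in the double mutant. The others were the short genes AT1G53542 and AT3G07273. Between the triple mutant and the double mutant the authors' deposited table gave q = 0.000211 for NIA2 and q = 0.000404 for GDU7. It gave q = 0.107 for TSF, q = 0.106 for AT1G53542 and q = 0.354 for AT3G07273, which are past 0.05. ASN1, AT4G22485, AT4G22513, AT4G32480 and AT5G38940 were the 5 largest downward. AT4G32480 was at 14.5 FPKM in Col-0 and 1.27 FPKM in the triple mutant (log2 difference -2.77) with 11.1 FPKM in the double mutant. The 2 comparisons share the Col-0 libraries.

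The triple mutant ranked 8 of 11 by the number of genes at which a genotype was highest and 10 of 11 by the number at which it was lowest. Of 14211 genes with at least 5 FPKM in it or Col-0 and listed at 0 in neither, it was above all 10 others at 843 (5.93%) and below them at 663 (4.67%). Over the same genes the other 10 genotypes were each highest at 3.50% to 26.7% and lowest at 4.55% to 20.9%. By the size of the gap AT1G53542 and AT1G27565 led upward. MYB82, a trichome regulator, was at 8.37 FPKM against 0.214 to 3.73 FPKM elsewhere. AT1G65870, a dirigent family gene, was at 44.9 FPKM against 0.920 to 28.2 FPKM. AT1G12672 was at 6.28 FPKM against 0 to 3.66 FPKM. Downward, HR4, a homolog of the RPW8 resistance genes, was at 11.9 FPKM against 45.5 to 249 FPKM elsewhere. AT2G15960 was at 12.8 FPKM against 29.4 to 869 FPKM. AT5G10695 was at 3.52 FPKM against 7.75 to 170.3 FPKM. AT4G33310 was at 1.32 FPKM against 5.87 to 20.2 FPKM. The ribosomal RNA gene AT3G41979 was at 869 FPKM against 2420.3 to 7116 FPKM. AT2G01020, another, was at 1166 FPKM against 2186 to 6086 FPKM. The part of rRNA content in other values was not tested.

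Both triple mutants together lay above the other 9 genotypes by over 0.3 (log2) at 4 genes that reached 5 FPKM, a grouping made after values were seen: TAS1C, TAS3, the short gene AT3G07273 and XTH15. AT3G07273 was at 5.56 FPKM in Col-0 and 31.0 FPKM in the triple mutant (log2 difference 2.29). XTH15, a wall enzyme, was at 2.65 FPKM in Col-0 and 10.12 FPKM in the triple mutant (log2 difference 1.61) with 8.16 FPKM in ein5-1 dcl4-2 dcl2-1. They lay below the other 9 at AT4G22520, AT5G38940 and AT2G42350. AT4G22520 was at 8.12 FPKM in Col-0 and 0.883 FPKM in the triple mutant (log2 difference -2.28) with 0.663 FPKM in the other triple mutant. AT5G38940, a germin-like gene, was at 5.82 FPKM in Col-0 and 0.352 FPKM in the triple mutant (log2 difference -2.33) with 0.564 FPKM. AT4G22520 belongs to a run of neighbouring genes on chromosome 4. AT4G22490 was at 65.7 FPKM in Col-0 and 20.9 FPKM in the triple mutant (log2 difference -1.60). AT4G22485 was at 22.2 FPKM in Col-0 and 2.18 FPKM in the triple mutant (log2 difference -2.87). AT4G22505 was at 40.3 FPKM in Col-0 and 4.39 FPKM in the triple mutant (log2 difference -2.94). AT4G22513 was at 23.3 FPKM in Col-0 and 3.89 FPKM in the triple mutant (log2 difference -2.31). AT4G22490 was at 21.04 FPKM in dcl4-2 and was lower in all 5 genotypes with dcl4-2 than in the 6 without.

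In some differences Col-0 held the highest value of the 11 genotypes. AT2G01008, AT3G41762, GRP17, GRP20 and AT4G36850 were higher in Col-0 than in any of the 10 mutants. Other genotypes were also above the triple mutant at some of them, with AT4G36850 at 6.19 FPKM in dcl4-2 and GRP20 at 3.48 FPKM. Over 14 genes of anther and pollen coat, a list written after these values were seen, the summed level was 37.5 FPKM in Col-0, 3.32 FPKM in the triple mutant and 0.262 to 28.9 FPKM in the other 9 genotypes. Of the 14, 7 reached 1 FPKM in Col-0 and 1 in the triple mutant, and 1 and 4 were listed at 0. The summed level of the flower markers AP3, PI, AG and SEP1, given above, was not higher in Col-0 than in the triple mutant.

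Short genes gave the most extreme values of the table. Among genes with at least 5 FPKM on one side, 34 were listed at 0 on the other, 17 in the triple mutant and 17 in Col-0, and their median length was 216 bases against 2401 bases over all genes tested. AT3G08520 was at 16901 FPKM in Col-0 and listed at 0 in the triple mutant and in 6 other genotypes. FPKM of genes shorter than a library fragment are unstable estimates. The 34 were left out of the ranking of named genes because they were listed at 0, and no rule on length was applied. Short genes with a value on both sides stayed in the ranking, such as AT1G53542 (186 bases) and AT3G41979 (164 bases). The 524 and 488 genes counted above include the 34.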

How the data were processed

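Poly(A) RNA of 33 libraries was measured, 3 per genotype, and the labels do not say whether the 3 were separate sowings. Per the submitters' processing notes reads were aligned to TAIR10 with TopHat2 2.1.1 and quantified with Cuffdiff, whose version is not given in the sources used here. The deposited FPKM values are the authors' pooled value per gene and genotype, scaled by transcript length and library size. The deposited p-values and q-values come from the authors' own comparisons, and none compares the triple mutant with Col-0. Printed are q between the triple mutant and ski2-2 dcl4-2 and, for the genes named as shared by both, q between ski2-2 dcl4-2 and Col-0.

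Read depth is unknown, so no interval or SD can be given, and genotypes were compared by size as log2(FPKM + 1) differences (pseudocount 1) over genes with at least 1 FPKM in either. The test between libraries that had been considered could not be made on pooled values. Named genes had at least 5 FPKM in either genotype and were not listed at 0: the 10 largest differences each way, the 5 largest each way that ski2-2 dcl4-2 shared at 3 (log2), the 5 each way that it had at 3 and the triple mutant least, the 5 each way that it lacked (under 0.5), and the 5 largest gaps each way to all other genotypes. From each of the 31 lists the 4 largest were considered, and all members of 4 of them. Members and lists were chosen with earlier results of these data known. Alternatives were a pseudocount of 0.1, a minimum of 5 FPKM or none, median-of-ratios scaling, quantile normalization and a difference of 2. Symbols came from TAIR10.1, which matched 32810 of 33557 identifiers, and its nuclear chromosomes have the lengths of TAIR10. Sequence matches are the ungapped alignments with fewest mismatches over the longest annotated transcript. The software was matplotlib 3.10.9, numpy 2.4.6 and pandas 2.3.3 under Python 3.11.15, and the counting was tested on simulated data.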

Additional observations from a re-analysis of the deposited data

How the results depend on the processing

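With a pseudocount of 0.1 the counts were 837 higher and 741 lower, and with a log2 difference of 2 in place of 1 they were 60 higher and 64 lower. A minimum of 5 FPKM, no minimum, median-of-ratios scaling and quantile normalization kept the counts within 1.5 times, at 421 to 524 higher and 351 to 512 lower, and each alternative that gives a median kept it within 0.1 of 0.03. No named gene or list member past 1 changed sign. Crossing the size called in either direction were 17 genes with a pseudocount of 0.1, 5 with median-of-ratios scaling and 11 with quantile normalization. List medians changed sign with a minimum of 5 FPKM for clock (0.03), touch and wound (0.06), jasmonate (0.01) and root genes (-0.30), and without a minimum for root genes (-0.12). For the other medians printed, moves of over 1.5 times are given beside the list. No paired analysis was possible because the table holds 1 pooled value per genotype, and for the same reason no replicate could be left out. Values of low genes and of genes shorter than a fragment are the least precise, and depth was not available to say by how much.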
